A study of Mus musculus with 4 samples.

Results

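The genes of oxidative phosphorylation encode the respiratory chain and the ATP synthase of the mitochondrial inner membrane. They were taken by a rule on gene symbols, as all listed genes whose symbol starts with Nduf, Uqcr, Cox4 to Cox8 or Atp5, together with Sdha, Sdhb, Sdhc, Sdhd and the protein-coding genes of the mitochondrial genome. This gave 105 of the 25814 genes listed. Of these, 74 were nuclear genes of subunits, 13 were mitochondrially encoded subunits, 10 were nuclear genes of assembly or coupling factors (Ndufaf1 to Ndufaf8, Cox7a2l and Atp5s), and 8 were nuclear paralogs known from muscle, testis, lung or other specialised tissues. A name rule misses subunits with other symbols, such as Cyc1 of complex III. A filter on low counts kept 97 of the 105 genes, which were all but the 8 tissue-restricted paralogs, among 12614 genes tested in all.

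RNA was sequenced from primary keratinocytes (KCs) grown from tail epidermis of adult 129/sv mice, with 2 Wildtype (WT) libraries and 2 Nfat5-Knockout (Nfat5-/-) libraries. NFAT5 is a transcription factor activated by osmotic stress. The comparison asked which RNAs differ between the genotypes in untreated KCs kept in serum-free medium with little calcium. In its account of the Nfat5-/- mice, the study reports small size, kidney atrophy and permanent hypernatremia. It gives no culture time for these libraries. WT mice were siblings of the Nfat5-/- mice, and the tails of both were shipped on ice before the cells were prepared. The labels do not tie a library to a mouse, and the study's wording leaves the number of mice per genotype unclear, so that p-values measure the spread between these libraries, which may in part be technical.

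Complex I (NADH dehydrogenase) and complex II (succinate dehydrogenase) feed electrons into ubiquinone, complex III passes them to cytochrome c, and complex IV (cytochrome c oxidase) hands them to oxygen. Complexes I, III and IV pump protons, and complex V, the ATP synthase, uses the gradient to make ATP. Most subunits are encoded in the nucleus and imported, while a few hydrophobic core subunits are transcribed and translated inside the organelle. Complex II has nuclear subunits only. The mitochondrial genome is transcribed from both strands into long precursor RNAs, which are cut largely at the tRNAs that lie between the genes. Most of the resulting mRNAs are then polyadenylated. Cultured basal KCs are known for strong glycolysis beside respiration, and these genes are used in nearly every cell type.

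As a check of the cells, Krt5 and Krt14, the keratin pair of basal KCs, lay between 4990.4 and 6985 RPKM in the 4 libraries. RPKM values are reads divided by exon length in kilobases and by library size. Krt10, a keratin of differentiated KCs, was at 0.520 to 0.854 RPKM. Krt1, another such keratin, was at 0.172 and 0.147 RPKM in WT KCs and at 0.271 and 0.811 RPKM in Nfat5-/- KCs. Nfat5 itself was at 1.67 and 3.002 RPKM in WT KCs and at 2.02 and 2.78 RPKM in Nfat5-/- KCs. Its reads, counted over the whole gene, did not separate the genotypes, which are named here by their labels (log2 fold change 0.09, SE 0.26, edgeR adjusted p = 0.913). Depth was 16219445 to 23494436 gene reads per library.

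The 13 mitochondrially encoded genes are single exons on the mitochondrial chromosome (MT) of build GRCm38, and all but mt-Nd6 are on the plus strand. The first 60 bases of 3 of them are shown, because mt-Co1 and mt-Nd1 had the clearest differences between the genotypes and mt-Nd3 had an estimate of the opposite sign. They are read from transcripts of GENCODE M21 on GRCm38, and the capitals mark the first codon, which differs between the 3 genes. The stretches lie at chrMT:5328-5387, chrMT:2751-2810 and chrMT:9459-9518.
mt-Co1: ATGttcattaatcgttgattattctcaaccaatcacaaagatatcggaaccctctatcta
mt-Nd1: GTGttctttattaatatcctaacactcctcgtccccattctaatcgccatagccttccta
mt-Nd3: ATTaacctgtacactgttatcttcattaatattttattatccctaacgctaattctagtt

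Neighbouring genes of the mitochondrial genome can share bases. The last 43 bases of mt-Atp8 are also the first 43 of mt-Atp6 (chrMT:7927-7969, plus strand). The stretch is shown because a read that covers it belongs in part to both genes, and the capitals mark the start codon of mt-Atp6 and the stop codon of mt-Atp8.
mt-Atp8 and mt-Atp6: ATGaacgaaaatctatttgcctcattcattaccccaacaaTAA

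In a second kind of sharing, stretches of mitochondrial DNA have been copied into nuclear chromosomes, and reads of 59 bases may fit both places. Of all 59-base windows, 0% of mt-Nd1, mt-Atp8, mt-Nd6 and mt-Cytb were identical to an annotated nuclear pseudogene transcript, against 46.9% of mt-Co1, 97.9% of mt-Nd3 and 100% of mt-Co2. The shares were 99.5% in mt-Atp6, 99.9% in mt-Co3, 98.7% in mt-Nd4l and 62.0% in mt-Nd4, but 7.25% in mt-Nd2 and 4.70% in mt-Nd5. A window of mt-Co2 at chrMT:7013-7071 that is found unchanged in the pseudogene Gm28661 on chromosome 1 is given as an example.
mt-Co2: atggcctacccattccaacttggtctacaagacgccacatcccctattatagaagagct

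Of the 13 mitochondrially encoded genes, 12 had lower and mt-Nd3 a higher estimate in Nfat5-/- KCs. The genes mt-Co1 and mt-Nd1 passed the threshold, and no nuclear subunit gene did. Over all 12614 genes, edgeR called 160 (1.27%) at an adjusted p under 0.05, of which 41 (0.325%) were lower in Nfat5-/- KCs. Among the 97 tested genes of oxidative phosphorylation the number was 2, and both were lower. At an unadjusted p under 0.05, 8 of the 13 mitochondrially encoded genes were lower and 1 was higher. The background over all genes was 6.47% lower and 8.17% higher. The 13 genes share the mitochondrial genome and its long precursor RNAs, so that they are not independent of each other. Of the 74 nuclear subunit genes, 0 had an unadjusted p under 0.05 in either direction with edgeR, and 0 passed the adjusted threshold with DESeq2.

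Complex IV had the clearest difference. mt-Co1 (chrMT:5328-6872) encodes subunit 1, which holds the site where oxygen is reduced. Its RNA level was 10799.7 and 10723 RPKM in WT KCs and 6619 and 6592 RPKM in Nfat5-/- KCs. The groups lay far apart and the libraries within each group were close together. The means were 10761 ± 54.2 RPKM (SD, n = 2) and 6606 ± 18.8 RPKM (SD, n = 2), and the log2 fold change was −0.68 (SE 0.09, edgeR adjusted p = 0.0251), which is 62.2% of WT. mt-Co2, the subunit that receives electrons from cytochrome c, was at 9265 and 8108 RPKM in WT KCs and at 5852 and 5690.0 RPKM in Nfat5-/- KCs. All WT values were above all others, but mt-Co2 missed the threshold (log2 fold change −0.57, SE 0.11, edgeR adjusted p = 0.0601). mt-Co3, the third core subunit, had 5926 and 5520.0 RPKM against 4666 and 4337 RPKM, with a smaller difference (log2 fold change −0.33, SE 0.10, edgeR adjusted p = 0.195).

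In complex I, mt-Nd1 (chrMT:2751-3707) encodes a membrane subunit next to the ubiquinone site. Its RNA level was 5781 and 5792 RPKM in WT KCs and 3868 and 3740.4 RPKM in Nfat5-/- KCs. The genotypes did not overlap, and the gap between them was many times that between replicates. The log2 fold change was −0.59 (SE 0.09, edgeR adjusted p = 0.0367), or 66.6% of WT. mt-Nd2, a membrane subunit of the proton-pumping arm, was at 1808 and 1851 RPKM in WT KCs and at 1380 and 1461 RPKM in Nfat5-/- KCs. Here too the groups were apart (log2 fold change −0.34, SE 0.10, edgeR adjusted p = 0.173).

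The membrane subunits mt-Nd4, mt-Nd5, mt-Nd4l and mt-Nd6 of complex I had overlapping or nearly overlapping groups. mt-Nd4 had 1209 and 1459 RPKM in WT KCs and 984 and 1287 RPKM in Nfat5-/- KCs. mt-Nd5 had 470 and 512 RPKM against 405 and 480 RPKM, and mt-Nd4l had 745 and 922 RPKM against 693 and 905 RPKM. In all 3, replicate 2 of each genotype was above replicate 1, and the groups overlapped. mt-Nd6, the only one of the 13 on the minus strand, had 506 and 454 RPKM against 371 and 435 RPKM, with the groups apart by less than the spread within them. The log2 fold changes of these 4 genes lay between −0.23 and −0.04, and the edgeR adjusted p-values between 0.454 and 0.940.

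The single mitochondrially encoded gene of complex III, mt-Cytb, encodes cytochrome b. It was at 2701 and 3894 RPKM in WT KCs and at 2354 and 2550.3 RPKM in Nfat5-/- KCs. The WT libraries differed more from each other than replicate 1 of WT differed from either library of the other genotype (log2 fold change −0.41, SE 0.17, edgeR adjusted p = 0.334). In complex V, mt-Atp6 encodes the subunit that forms the proton channel and mt-Atp8 a small membrane subunit. mt-Atp6 was at 8765 and 8790.1 RPKM in WT KCs against 6801 and 6365 RPKM, and mt-Atp8 at 6404 and 6974 RPKM against 5526 and 4998 RPKM. Both genes were lower in every Nfat5-/- library than in every WT library. Their log2 fold changes were −0.40 (SE 0.09, edgeR adjusted p = 0.108) and −0.33 (SE 0.10, edgeR adjusted p = 0.213).

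**Figure D1:**
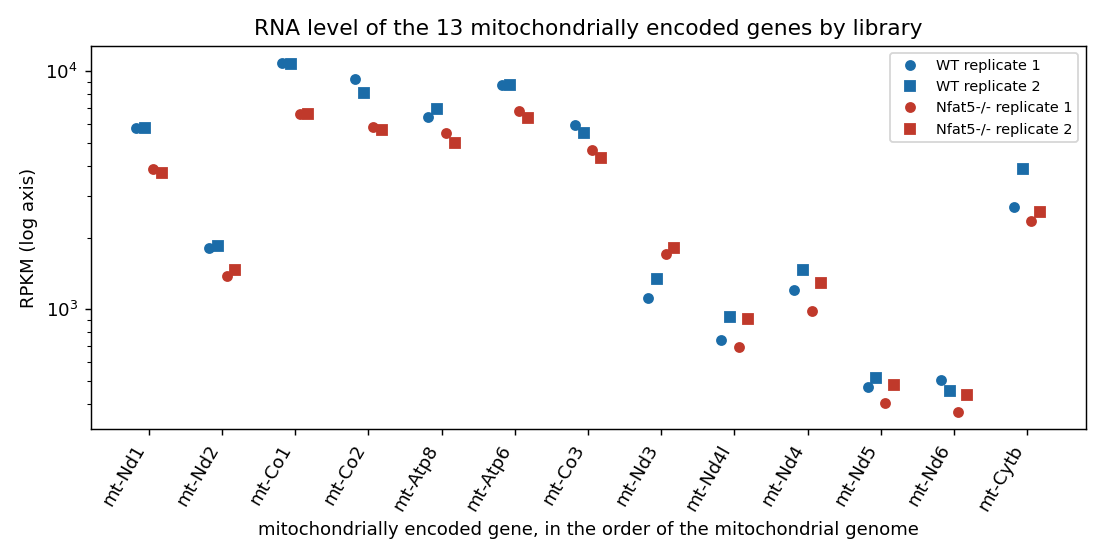
RNA level of each mitochondrially encoded gene in RPKM on a log axis, with the genes in the order of the mitochondrial genome. Points are single libraries, WT in blue and Nfat5-/- in red, with circles for replicate 1 and squares for replicate 2. For 9 genes both red points lie below both blue points, and for mt-Nd3 both lie above.

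mt-Nd3 (chrMT:9459-9806), a small membrane subunit of complex I, was the only one of the 13 with a higher estimate in Nfat5-/- KCs. Its level was 1110.1 and 1333 RPKM in WT KCs and 1712 and 1811 RPKM in Nfat5-/- KCs. Both of the latter were above both WT libraries. The log2 fold change was 0.55 (SE 0.12, unadjusted p = 0.00236 by edgeR), and its adjusted p of 0.0901 missed the threshold. Its neighbours on the same strand, mt-Co3 and mt-Nd4l, had log2 fold changes of −0.33 and −0.04. Relative to mt-Co3, which lies just before it, the ratio of RPKM values was 0.187 and 0.241 in WT KCs and 0.367 and 0.418 in Nfat5-/- KCs. Relative to mt-Nd4l, which follows it, the ratio was 1.49 and 1.44 in WT KCs and 2.47 and 2.00 in the others. Both ratios were higher in each Nfat5-/- library than in each WT library. As given above, 97.9% of its windows are shared with a pseudogene, whose part in these values was not tested. The share of mt-Nd3 among the reads of the 13 genes was 0.791% and 0.934% in WT KCs and 1.72% and 1.82% in Nfat5-/- KCs, while that of mt-Co1 was 34.2% and 33.3% against 29.6% and 29.4%.

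**Figure D2:**
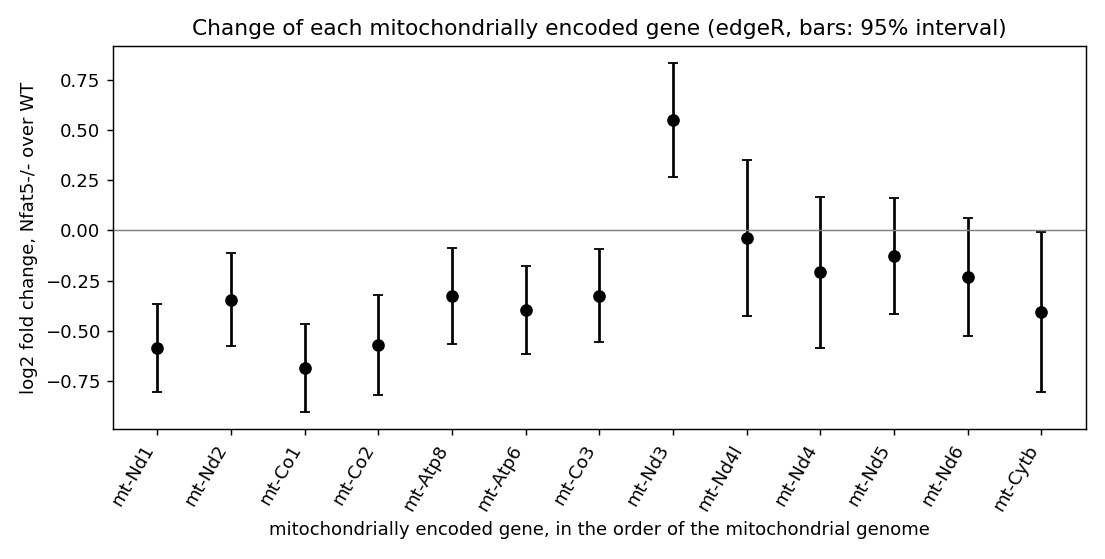
Log2 fold change (Nfat5-/- over WT, 2 libraries each) of the 13 mitochondrially encoded genes in genome order, as points with 95% intervals from the edgeR fit. The estimate for mt-Nd3 is 0.55 and those of the other 12 genes lie between −0.68 and −0.04.

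Added up, the 13 genes took 5.01% and 5.09% of the gene reads in WT KCs and 3.54% and 3.55% in Nfat5-/- KCs. The exact 95% binomial intervals of these shares, which cover counting error only, ran from 5.00% to 5.02%, from 5.08% to 5.10%, from 3.54% to 3.55% and from 3.54% to 3.55%. The mean share was lower by 1.504 points, at 70.2% of WT, and the libraries of 1 genotype were within 0.1 points of each other. With 2 against 2 libraries the smallest p that an exact two-sided permutation test can give is 0.333, so that this test could not pass 0.05. The nuclear subunit genes took 0.928% and 0.891% in WT KCs and 0.948% and 0.862% in Nfat5-/- KCs, and these groups overlapped. Summed over the 13 genes, the level was 55911 ± 595 RPKM (SD, n = 2) in WT KCs and 40942 ± 408 RPKM (SD, n = 2) in the others. Summed over the 74 nuclear subunit genes it was 7819 ± 242 RPKM (SD, n = 2) and 7870 ± 500 RPKM (SD, n = 2), with no difference beyond the spread between replicates.

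**Figure D3:**
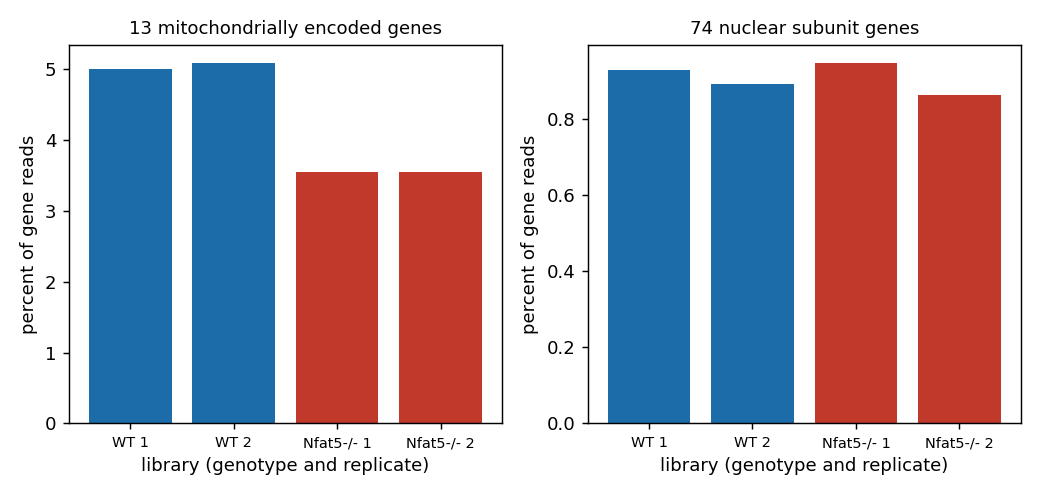
Percent of all gene reads in each library that fell on the 13 mitochondrially encoded genes (left) and on the 74 nuclear subunit genes (right), with WT in blue and Nfat5-/- in red. The left bars are near 5% in WT KCs and 3.5% in Nfat5-/-, and the right bars overlap between 0.862% and 0.948%.

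The balance of the coding genomes within each complex was compared as the summed RPKM of its mitochondrial genes over that of its nuclear genes. Over all complexes this ratio was 6.94 and 7.37 in WT KCs and 5.01 and 5.41 in Nfat5-/- KCs. In complex IV it was 12.09 and 12.04 against 7.93 and 8.15, and in complex V it was 5.76 and 6.14 against 4.43 and 4.51. The groups were apart in both. In complex I the values were 5.62 and 6.35 against 4.47 and 5.30, and also did not overlap. In complex III, with mt-Cytb alone on the mitochondrial side, they were 2.97 and 4.37 against 2.50 and 3.03, which overlapped.

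The median log2 fold change of the 13 genes was −0.33, and that of the 74 nuclear subunit genes was 0.00, beside −0.01 over all genes tested. Another scaling moved the median of all genes by at most 0.02. Of the 13 genes, which are not independent of each other, 9 were lower in both Nfat5-/- libraries than in both WT libraries and 1 was higher. The background over all tested genes was 24.5% lower and 23.3% higher. Among the 74 nuclear subunit genes, 7 were lower and 17 higher in this sense.

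With 1 library left out, the lone library of its genotype is assumed to vary like the other group, and the call of mt-Co1 was lost in 3 of 4 such fits and that of mt-Nd1 in all 4. The edgeR adjusted p of mt-Co1 was 0.0535 without WT replicate 1, 0.0392 without WT replicate 2, 0.0558 without Nfat5-/- replicate 1 and 0.0548 without Nfat5-/- replicate 2. That of mt-Nd1 was between 0.0628 and 0.115 in these 4 fits. The log2 fold change of mt-Co1 stayed between −0.70 and −0.67 in them.

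In bulk RNA, fewer cells of a type and less RNA per cell cannot be told apart. The libraries of the 2 genotypes differed in genes listed as markers of other cell types. The 5 smooth muscle markers summed to 184 and 151 RPKM in WT KCs and to 518 and 819 RPKM in Nfat5-/- KCs. The 4 of them that could be tested passed the threshold. By level the highest was Acta2, with 164 and 134 RPKM against 450 and 723 RPKM. Myh11 stayed at or below 0.294 RPKM and Des at or below 0.0199 RPKM. The 5 melanocyte markers summed to 7.29 and 6.99 RPKM in WT KCs and to 2.04 and 2.89 RPKM in the others, with Tyrp1 past the threshold among 4 tested. The 7 KC markers summed to 12153 and 10583 RPKM in WT KCs and to 10559.6 and 11958 RPKM in Nfat5-/- KCs. Nearly all of this sum was Krt5 and Krt14. None of the 7 passed, but at an unadjusted p under 0.05 by edgeR Itga6 was lower and Krt1 higher in Nfat5-/- KCs. Itga6 had 160 and 135 RPKM in WT KCs against 107 and 118 RPKM.

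Markers of skeletal and heart muscle, brown fat, fibroblasts, endothelium and immune cells were low, Acta1 aside. Of 8 skeletal and heart muscle markers, 5 were at 0 in every library, and the sum (29.3 and 20.4 RPKM in WT, 39.4 and 54.8 RPKM in the others) came almost wholly from Acta1. The 4 brown fat markers summed to at most 1.05 RPKM. The 6 fibroblast markers summed to at most 1.13 RPKM, the 4 endothelial markers to at most 0.770 RPKM and the 6 immune cell markers to 2.40 and 4.17 RPKM in WT KCs and 5.64 and 4.71 RPKM in the others. Whether these marker RNAs came from other cells, and the part of such cells in the mitochondrial levels, was not tested.

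The nuclear subunit genes were close in level between the genotypes. Their log2 fold changes lay between −0.14 (Uqcrfs1) and 0.23 (Uqcrh), and 60 of the 74 were within 0.1 of 0. The median size of the change was 0.05 with a median SE of 0.11, and the median difference between replicates was 0.08 in WT KCs and 0.10 in Nfat5-/-. For all 74 genes the 95% interval of the change lay within a 1.5-fold change in either direction, with bounds from −0.44 to 0.47 on the log2 scale. Changes within these bounds were not resolved with 2 libraries per group. Scaled to library size, 64 of the 74 were lower in Nfat5-/- replicate 2 than in replicate 1, and 60 were lower in WT replicate 2 than in WT replicate 1, so that replicates differed in the same direction for most of these genes.

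**Figure D4:**
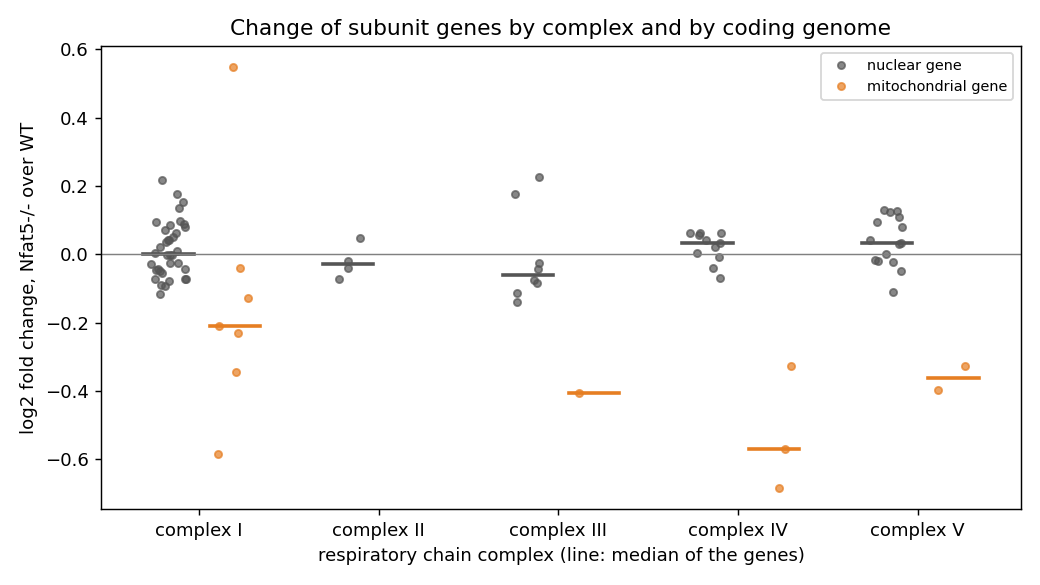
Log2 fold change (Nfat5-/- over WT) of the 87 subunit genes by respiratory chain complex, with nuclear genes in grey and mitochondrial genes in orange. Each point is a gene and each line the median. The nuclear points lie between −0.14 and 0.23 in every complex, and the medians of the mitochondrial genes between −0.57 in complex IV and −0.21 in complex I.

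In complex I, 18 of the 36 nuclear genes had higher and 18 lower estimates. Ndufv1 carries the flavin that takes electrons from NADH, and its level was 69.5 and 64.4 RPKM in WT KCs and 69.4 and 60.6 RPKM in Nfat5-/- KCs. Ndufs1, an iron-sulfur subunit, had 19.1 and 19.2 RPKM against 20.1 and 19.4 RPKM. The groups of Ndufv1 overlapped, and the log2 fold changes of these genes were −0.03 and 0.06. The largest estimate among the nuclear subunit genes of the complex was that of Ndufa13, an accessory subunit also known as GRIM-19. It had 46.5 RPKM in both WT libraries and 53.9 and 53.2 RPKM in the others. Its log2 fold change was 0.22 (SE 0.10, edgeR adjusted p = 0.365, the lowest among the nuclear subunit genes). Ndufb7, another accessory subunit, had 80.2 and 81.0 RPKM against 97.4 and 82.6 RPKM, where most of the difference came from Nfat5-/- replicate 1.

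Complex II, the complex with no mitochondrial gene, was close to level. Sdha, the flavoprotein that oxidises succinate, had 61.2 and 60.7 RPKM in WT KCs and 58.9 and 55.6 RPKM in Nfat5-/- KCs. Sdhb, the iron-sulfur subunit and the highest of the 4, had 75.1 and 67.7 RPKM against 75.9 and 70.4 RPKM. The membrane anchors Sdhc and Sdhd had 39.7 and 37.6 RPKM against 37.6 and 37.4 RPKM, and 54.2 and 58.0 RPKM against 58.7 and 48.9 RPKM. Their log2 fold changes were between −0.07 and 0.05, with edgeR adjusted p-values of at least 0.788. The complex as a whole summed to 227 ± 4.41 RPKM (SD, n = 2) and 222 ± 13.3 RPKM (SD, n = 2).

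In complex III the 8 nuclear genes spread in both directions. Uqcrh, the hinge protein near cytochrome c1, had 102 and 113 RPKM in WT KCs and 125 and 122 RPKM in Nfat5-/- KCs (log2 fold change 0.23, SE 0.11, edgeR adjusted p = 0.380). Uqcr11, a small subunit, had 137 and 142 RPKM against 164 and 147 RPKM. Uqcrfs1, the Rieske iron-sulfur protein, had 64.5 and 62.0 RPKM against 60.9 and 52.4 RPKM, the lowest estimate of any nuclear subunit gene (log2 fold change −0.14, SE 0.11, edgeR adjusted p = 0.611). The core proteins Uqcrc1 and Uqcrc2 had log2 fold changes of −0.07 and −0.04. In all of these the groups were apart except in Uqcrc2, and none passed the threshold.

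In complex IV, where the mitochondrial genes differed most, the 11 nuclear genes had a median log2 fold change of 0.03. Cox4i1, a regulatory subunit, had 347 and 321 RPKM in WT KCs and 344 and 331 RPKM in Nfat5-/- KCs. Cox5a had 184 and 174 RPKM against 172 and 165 RPKM, and Cox5b had 123 and 119 RPKM against 129 and 120 RPKM. The 11 genes together summed to 2087 ± 90.3 RPKM (SD, n = 2) in WT KCs and to 2100 ± 86.7 RPKM (SD, n = 2) in the others. The difference of these sums was smaller than the spread between replicates.

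In complex V, Atp5b, the catalytic beta subunit, was the most abundant nuclear gene of all 74, with 658 and 645 RPKM in WT KCs and 679 and 608 RPKM in Nfat5-/- KCs. Atp5a1, the alpha subunit, had 272 and 257 RPKM against 276 and 242 RPKM, and Atp5c1, the central stalk, 75.3 and 71.7 RPKM against 75.5 and 65.2 RPKM. In all 3 the levels of the Nfat5-/- libraries enclosed those of WT. The lowest subunit gene of the complex, Atp5g1, is 1 of 3 genes for the membrane ring, and had 29.9 and 28.5 RPKM against 27.8 and 25.5 RPKM.

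**Figure D5:**
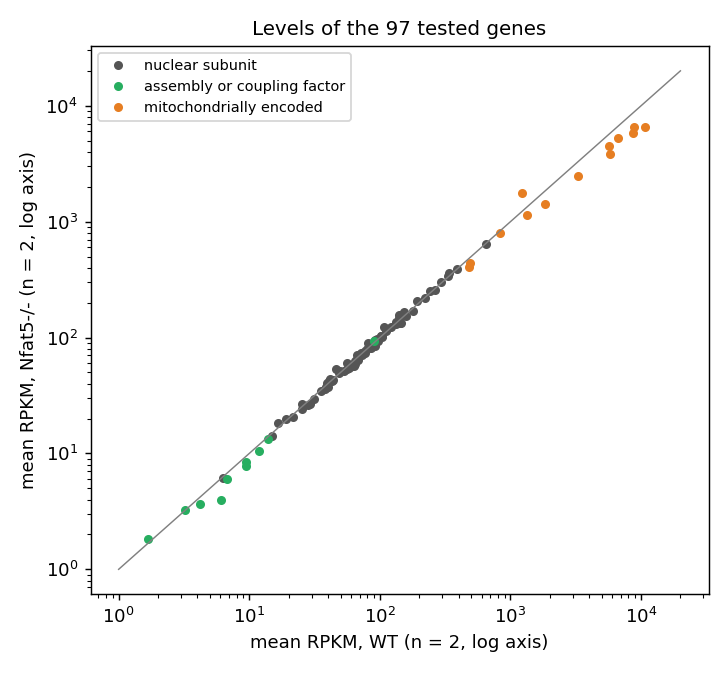
Mean RPKM in WT (horizontal) and Nfat5-/- (vertical), both on log axes, of the 97 tested genes, with the line of equal levels. Nuclear subunit genes (grey) follow the line from 6.21 to 647 RPKM, and of the mitochondrially encoded genes (orange) only mt-Nd3 lies above it.

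Levels per length differed by complex and by coding genome. Over the 4 libraries, the highest gene was mt-Nd1 (4795 RPKM) in complex I, mt-Cytb (2875 RPKM) in complex III, mt-Co1 (8683 RPKM) in complex IV and mt-Atp6 (7680.3 RPKM) in complex V. The lowest subunit genes, the tissue-restricted paralogs left aside, were Ndufb2 (6.21 RPKM), Uqcrfs1 (59.9 RPKM), Cox6c (49.1 RPKM) and Atp5g1 (27.9 RPKM). In complex II the range was narrow, from Sdhc at 38.1 RPKM to Sdhb at 72.2 RPKM. Some low values are uncertain, since the tables placed under 60% of the exon reads at a single site for 11 nuclear subunit genes, Ndufb2 and Ndufa13 among them, and under 10% for Ndufs5, Cox7c and Ndufb4. For mt-Co1 this share was 75.6% and for mt-Co2 70.5%.

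The paralogs of complex IV known from other tissues were nearly silent, and the widely used forms were present in every library. Cox4i2, Cox7b2, Cox8b and Cox8c were at 0 RPKM in all 4 libraries, where 3 reads per kilobase would be 0.128 to 0.185 RPKM. The 2 to 9 gene reads of Cox4i2, the lung form beside Cox4i1, were in introns. Cox8b is a heart and skeletal muscle form, and its widely used counterpart Cox8a was at 307 and 283 RPKM in WT KCs and 309 and 298 RPKM in Nfat5-/- KCs. Cox6a2, the muscle counterpart of Cox6a1, had 1 gene read in 1 library, while Cox6a1 had 412 and 364 RPKM against 408 and 379 RPKM. Cox7a1, another muscle form, was at 0.34 to 0.85 RPKM, below the 86.6 to 99.7 RPKM of Cox7a2. Cox6b2, known from testis, had 2 and 1 gene reads in WT KCs and 8 and 8 in Nfat5-/- KCs, beside 2605 to 3744 reads of Cox6b1. Ndufa4l2, a form induced by hypoxia, had 7 and 2 gene reads in WT KCs and 5 and 20 in the others, beside 2275 to 3498 reads of Ndufa4. The 8 genes were too low for the test.

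The start regions of a present and a silent gene of complex IV are shown, because Cox6a1 was the highest nuclear gene of complex IV and Cox8b was at 0. Both are RefSeq promoters on GRCm38.p6 of 300 bases, from 250 before to 50 after the gene start, on the minus strand. Cox6a1 is at chr5:115348909-115349208 and holds 32 CpG pairs, and Cox8b is at chr7:140900397-140900696 and holds 2. The capitals mark matches to the motif of NRF1, a transcription factor known for genes of respiration, searched on both strands and counted once where both match at the same place. Its pattern leaves only the sixth base free, in which the matches shown differ.
Cox6a1: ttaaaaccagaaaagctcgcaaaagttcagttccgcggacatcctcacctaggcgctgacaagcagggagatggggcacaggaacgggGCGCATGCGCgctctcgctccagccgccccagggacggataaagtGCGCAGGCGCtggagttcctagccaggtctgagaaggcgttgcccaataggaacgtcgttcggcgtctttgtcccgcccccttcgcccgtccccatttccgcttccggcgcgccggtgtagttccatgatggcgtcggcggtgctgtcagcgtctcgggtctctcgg
Cox8b: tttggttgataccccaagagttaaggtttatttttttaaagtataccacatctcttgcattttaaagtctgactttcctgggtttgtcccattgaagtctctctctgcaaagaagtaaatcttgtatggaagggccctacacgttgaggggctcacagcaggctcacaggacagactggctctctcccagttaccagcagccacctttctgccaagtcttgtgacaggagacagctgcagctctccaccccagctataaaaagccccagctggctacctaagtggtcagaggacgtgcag

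A promoter entry was found for 62 of the 74 nuclear subunit genes, and 17 of these (27.4%) held the NRF1 motif. Of the 27025 genes with an entry, 1402 (5.19%) held it. Of the tissue-restricted paralogs, 4 had an entry and 0 held the motif. A match is a description of these letters only.

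The 10 assembly and coupling factors, Cox7a2l aside, were less abundant than most subunits. Of the 8 complex I assembly factors Ndufaf1 to Ndufaf8, 7 had lower and 1 (Ndufaf2) a higher estimate, with a median log2 fold change of −0.15, and none passed the threshold. The lowest estimate was that of Ndufaf6, with 6.73 and 5.43 RPKM in WT KCs and 4.80 and 3.10 RPKM in Nfat5-/- KCs. The groups were apart, but replicates of 1 genotype differed by more than the groups' nearest libraries (log2 fold change −0.56, SE 0.25, edgeR adjusted p = 0.365). Cox7a2l, which takes part in joining complexes III and IV, had 90.0 and 90.7 RPKM against 92.6 and 93.4 RPKM.

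Among the genes of 6 further lists of mitochondrial function, 1 passed the threshold, where 1.27% of all genes tested did. Ucp2, a carrier of the inner membrane named as an uncoupling protein, had 23.7 and 21.9 RPKM in WT KCs and 36.2 and 33.3 RPKM in Nfat5-/- KCs. The groups were well apart (log2 fold change 0.63, SE 0.10, edgeR adjusted p = 0.0416). It belonged to a list of 15 tested electron carriers and ADP/ATP exchangers, of which 8 had higher and 7 lower estimates. Of 18 tested genes for copying and transcribing mitochondrial DNA, 4 had higher and 14 lower estimates (median log2 fold change −0.10). Of 78 genes of the mitochondrial ribosome, 24 had higher and 54 lower estimates (median −0.08). None of either list passed, and the libraries of the genotypes overlapped for most of their genes.

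The remaining lists had no member past the threshold. Of 38 assembly factors with other names, 14 had higher and 24 lower estimates (median log2 fold change −0.05). Of 17 genes of the citric acid cycle and pyruvate dehydrogenase, 11 had higher and 6 lower estimates (median 0.01). Of 10 regulators of mitochondrial biogenesis, 8 were tested, with 6 higher and 2 lower estimates (median 0.06), and Ppargc1a, the coactivator PGC-1alpha, was at 0 RPKM in all 4 libraries. Reads in introns made up 0.474% and 0.479% of the gene reads of the nuclear subunit genes in WT KCs and 0.428% and 0.413% in Nfat5-/- KCs.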

How the data were processed

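The authors made poly(A)-selected libraries and processed the reads with the CLC Genomics Workbench on mouse build GRCm38. The deposited tables list, per library, counts of gene, exon, uniquely placed exon and intron reads, made by the authors and not normalized, and RPKM values computed by the authors from exon reads with decimal commas. Strand was not stated to be used in counting, so that overlapping genes are uncertain. Pseudogene copies of mitochondrial DNA and mitochondrial rRNA and tRNA genes were not analysed here.

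Group and replicate came from the sample titles. Gene reads were tested with edgeR 4.0.16 in R 4.3.3 (filterByExpr, TMM factors 0.980 to 1.01, quasi-likelihood, genotype as the only term). P-values were two-sided and Benjamini-Hochberg adjusted over all 12614 genes, with a threshold of 0.05. SEs were derived from the F statistics, and intervals are 95% intervals. Levels are deposited RPKM, given as mean ± SD. Groups were called apart from TMM-scaled counts.

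The alternatives were other scalings, filters of 10 reads in every library or none, DESeq2 1.42.0, limma 3.58.1 on log2(RPKM + 1) and log2(RPKM + 0.1) with a mean of at least 0.5 RPKM, exon reads, a replicate block, a threshold of 0.1 and each library left out. The procedure was tested on simulated counts. The named genes were those past the threshold, the 5 largest rises and falls, the 13 mitochondrially encoded genes and the ends of each complex by level. Core subunits and tissue paralogs with their widely used forms were named too. The 8 tissue paralogs were not tested and are not among the 43 genes followed under the alternatives. One gene that the rule names is not reported here. The members and lists were chosen with earlier results of these data known. Sequences came from GENCODE M21 and RefSeq tables. Library replicates differed by more than sampling noise (chi-square per degree of freedom 13.3 in WT and 13.8 in Nfat5-/-).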

Additional observations from a re-analysis of the deposited data

How the results depend on the processing

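The median log2 fold changes, the share of mitochondrial reads and the number of genes of oxidative phosphorylation at an unadjusted p under 0.05 moved little. Of 675 values of the 43 named genes under alternatives, 640 moved by less than their error, 13 moved by more, 9 lost and 13 gained a call, and 0 calls changed direction. The number of all genes past the threshold was 160, against 1137 with no filter on low counts, 426 with DESeq2 and 364 at an adjusted p under 0.1, and ran from 16 to 478 with 1 library left out. The number of genes of oxidative phosphorylation past it was 2, against 8 with no filter, 5 with DESeq2, 4 at the looser threshold, 3 with library totals, 3 with uniquely placed exon reads and 0 with a replicate block, and ran from 0 to 3 with 1 library left out (0 without WT replicate 1, 3 without WT replicate 2, 0 without Nfat5-/- replicate 1 and 0 without Nfat5-/- replicate 2). The cause of these moves was not tested, except that a fit without 1 library has fewer samples. The adjusted p of mt-Nd3 was 0.0901 in edgeR, 0.000195 with no filter, 0.00276 with DESeq2, 0.232 without WT replicate 1, 0.0347 without WT replicate 2, 0.172 without Nfat5-/- replicate 1 and 0.445 without Nfat5-/- replicate 2. With 1 library left out, the median log2 fold change ran from −0.37 to −0.31 for the mitochondrially encoded genes and from −0.047 to 0.071 for the nuclear subunit genes, the difference in mitochondrial share from −1.55 to −1.46 points, and the genes at an unadjusted p under 0.05 from 8 to 10. Of the 13 mitochondrially encoded genes, 12 were lower in all settings that held them except without WT replicate 2 (11) and without Nfat5-/- replicate 1 (10). Replicate numbers are shared between the genotypes, and the deviations of same-numbered libraries had a correlation of −0.07. With 2 libraries per genotype this cannot decide whether the numbers mark true pairs, and no label says so. With the replicate block, edgeR gave adjusted p-values of 0.0662 for mt-Co1, at a log2 fold change of −0.68, and 0.0905 for mt-Nd1. A scaling to the nuclear genes alone was chosen after seeing the data and gave 174 genes past the threshold. Counting the mitochondrial rRNA and tRNA with the other mitochondrial genes was not run, because they are not in the tables used here. Uniquely placed reads do not remove all windows shared with pseudogenes, since the tables call 100% of the exon reads of mt-Nd3 unique, against 70.5% of those of mt-Co2. With 2 libraries per group, small differences are beyond what the depth and spread can show.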
